A study of Mus musculus with 6 samples.

Results

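The genes described here encode the mitochondrial carriers of the Slc25 family and the subunits of the mitochondrial pyruvate carrier, measured in the ureteric epithelium of the embryonic mouse kidney. Every symbol of the deposited table that starts with Slc25a was taken, together with Ucp2, Mpc1 and Mpc2. This gave 50 of the 38404 symbols listed, and 49 of them had values, of 21456 symbols with values. Cells came from kidneys of CFW mice at stage E16.5. Tip cells (Wnt11RFP+;Hoxb7GFP+) were positive for a red reporter named for Wnt11 and a green reporter named for Hoxb7. Stalk cells (Wnt11RFP-;Hoxb7GFP+) were positive for the green reporter alone, so both groups carry it, and each group has 3 libraries. The labels do not say whether each library is a separate animal or a pool, and p-values therefore describe the spread between these libraries, which may be technical. Values are RPKM (reads per kilobase of transcript, scaled to the mapped reads of the library) as deposited by the authors and summed over the rows of a symbol, so levels of different genes are compared per length. The sequencing depth is unknown. Tip replicate 2 and stalk replicate 1 stood apart on the second principal component of all genes tested, with scores of -20.5 and -25.0, against 7.72 to 18.5 for the other 4 libraries.

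Most Slc25 proteins sit in the inner mitochondrial membrane and exchange nucleotides, phosphate, carboxylic acids, amino acids or cofactors between cytosol and matrix, and a few act in peroxisomes or in the outer membrane. They are encoded in the nucleus and inserted by the TIM22 complex. The pyruvate carrier belongs to a separate family, and its subunits MPC1 and MPC2 together pass pyruvate to the matrix, where pyruvate dehydrogenase uses it. In the kidney, mitochondria supply much of the ATP that drives ion transport by the tubules.

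Promoters are shown for 4 carriers whose levels differed: Mpc2, with the largest log2 fold change toward stalk, Slc25a20 and Slc25a33, which were also higher in stalk, and Slc25a13, which was higher in tip. No fixed rule chose these 4 from the 22 called carriers. Slc25a20, Slc25a33 and Slc25a13 hold a motif match, unlike most carrier promoters searched, so the 4 do not represent the carriers. Each line gives the 250 bases before the RefSeq start site in build GRCm38.p6, 5′ to 3′ on the strand of the gene. Capitals mark a match to a motif named in the next paragraph.
Mpc2, chr1:165461010-165461259, plus strand: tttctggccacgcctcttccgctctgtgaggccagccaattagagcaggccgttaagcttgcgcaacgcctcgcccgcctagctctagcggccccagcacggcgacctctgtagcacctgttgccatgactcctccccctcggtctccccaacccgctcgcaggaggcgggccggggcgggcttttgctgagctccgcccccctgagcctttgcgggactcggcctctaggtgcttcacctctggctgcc
Slc25a20, chr9:108661886-108662135, plus strand: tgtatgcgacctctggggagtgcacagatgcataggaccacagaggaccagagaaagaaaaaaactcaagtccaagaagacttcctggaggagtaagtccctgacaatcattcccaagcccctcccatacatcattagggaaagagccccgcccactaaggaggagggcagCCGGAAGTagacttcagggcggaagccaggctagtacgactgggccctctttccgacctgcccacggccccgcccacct
Slc25a33, chr4:149774268-149774517, minus strand: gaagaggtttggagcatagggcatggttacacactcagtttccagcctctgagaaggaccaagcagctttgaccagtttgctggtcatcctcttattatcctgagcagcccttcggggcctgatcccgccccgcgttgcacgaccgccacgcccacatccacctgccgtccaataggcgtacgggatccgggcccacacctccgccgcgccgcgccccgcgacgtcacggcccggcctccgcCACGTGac
Slc25a13, chr6:6217174-6217423, minus strand: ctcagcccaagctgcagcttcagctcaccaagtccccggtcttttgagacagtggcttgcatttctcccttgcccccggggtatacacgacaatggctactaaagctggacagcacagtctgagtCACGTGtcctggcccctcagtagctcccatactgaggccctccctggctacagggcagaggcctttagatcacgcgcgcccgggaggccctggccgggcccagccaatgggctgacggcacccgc

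RefSeq promoter windows of 300 bases, 250 before and 50 after the start, were found for 38 of the 49 carriers with values, as 49 windows, and both strands were searched. CACGTG, the E-box, was in 8 windows (16.3%) of 7 genes, against 7.15% of all 32851 windows, and the overlapping windows of Slc25a14 share their copy. Of the 18 carriers called toward stalk that had a window, 3 held it, namely Slc25a1, Slc25a33 and Slc25a36. CCGGAAGT, an ETS core, was in 1 window (2.04%), that of Slc25a20, against 3.89% of all windows. GCATGCGC, from the NRF1 motif, was in 1 window (2.04%), that of Slc25a31, against 2.71% of all windows. TNAAGGTCA, the element of estrogen-related receptors, was in 0 of the 49 windows and in 1.28% of all windows. In the lines above, CACGTG begins at base 243 of Slc25a33 and at base 126 of Slc25a13, CCGGAAGT begins at base 172 of Slc25a20, and Mpc2 holds none of the motifs. These matches describe the letters only.

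Most carriers that differed were higher in stalk. Genes with a mean of 1 RPKM or more, 12532 in all, were tested with limma on log2(RPKM + 1), and a gene was called at a Benjamini-Hochberg adjusted p under 0.05 over all of them. Of the 42 carriers tested, 2 (4.76%) were called toward tip and 20 (47.6%) toward stalk. Over all genes tested, 26.1% were called toward tip and 22.5% toward stalk, 48.6% in all. These shares are also the background for the count of each role group and marker list below. The median log2 fold change (tip minus stalk throughout) was -0.31 over the tested carriers and 0.045 over all genes. Negative values were found for 33 carriers (78.6%), against 47.0% of all genes. In bulk samples, fewer cells of a type and less RNA per cell cannot be told apart.

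The groups did not overlap for 25 of the carriers, with background 57.8% of all genes. All tip libraries lay above all stalk libraries for 3 carriers (background 31.3%), and all stalk libraries lay above all tip libraries for 22 carriers, 52.4% (background 26.5%). Most changes were moderate. A change toward stalk of at least 1 log2 unit was called for 2 carriers, Mpc2 among them (background 8.87%), while 10 changed by 0.5 to 1 unit and 8 by less. The median absolute change was 0.38 over carriers and 0.39 over all genes. The count toward stalk was 12 without tip replicate 1 and 13 without stalk replicate 3. Without both libraries that stood apart, 3 carriers were called toward tip and 19 toward stalk, and 17 of the 19 were among the 20. Of the 22 called carriers, 12 passed in each alternative that tested them. Among these were Mpc2, Ucp2, Slc25a1, Slc25a10, Slc25a11, Slc25a13, Slc25a16, Slc25a30, Slc25a33, Slc25a42 and Slc25a45. A minimum mean of 5 RPKM left Slc25a42 and Slc25a45 untested, and the largest row in place of the sum left Slc25a42 untested.

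Summed over the 49 carriers, RPKM came to 1037, 1099 and 1077 in the tip libraries, against 1356, 1454 and 1394 in the stalk libraries, without overlap. By level, 3 carriers averaged at least 100 RPKM, 17 lay between 10 and 100, 22 between 1 and 10, and 7 under 1.

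**Figure D1:**
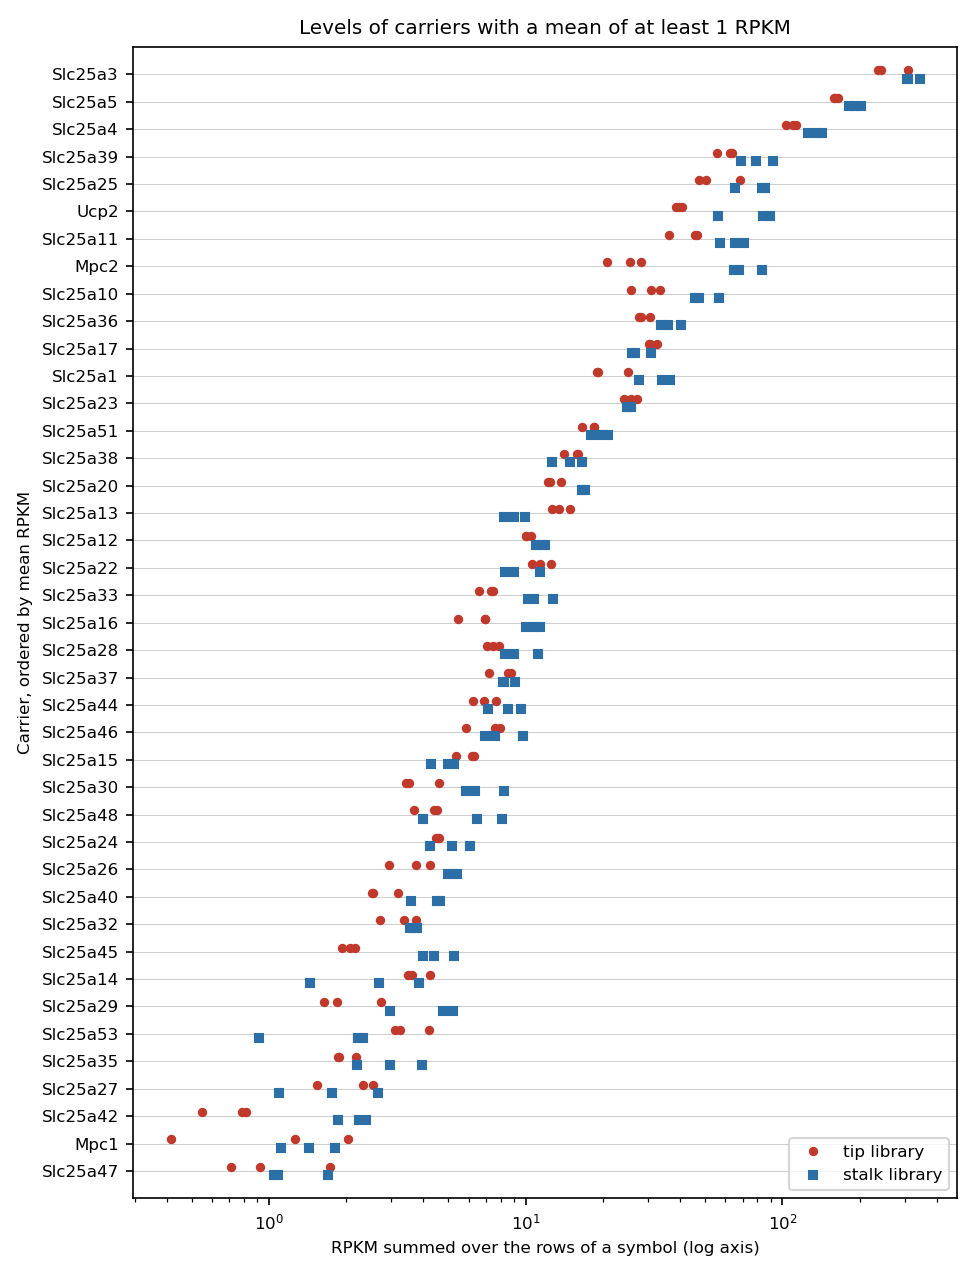
RPKM of 41 tested carriers on a log axis, ordered by mean level, with 3 tip libraries as circles and 3 stalk libraries as squares just below them. Slc25a3, Slc25a5 and Slc25a4 average above 100 RPKM, and for 21 of the carriers plotted every stalk library lies above every tip library.

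Markers of tip and stalk largely followed the labels. All tested markers of intercalated cells, urothelium and endothelium were higher in stalk as well. Tested nephron progenitor markers were higher in tip, and those of the remaining cells moved in both directions or were not called. Of 9 genes listed as tip markers, 8 were higher in tip and Wnt9b was higher in stalk. Wnt11, among the 8, names the reporter that defined tip cells, so its direction is not separate evidence. All 7 markers of principal cells and stalk were higher in stalk. Intercalated cells are rich in mitochondria, and their 8 markers summed to 24.4 to 29.1 RPKM in tip libraries and 339 to 571 RPKM in stalk libraries, with all 7 that were tested higher in stalk. The 6 urothelial markers summed to 0.247 to 0.815 RPKM in tip libraries and 204 to 473 RPKM in stalk libraries, with Upk2 and Krt5 at 0 in every tip library and all 5 tested markers higher in stalk. The 7 endothelial markers summed to 5.05 to 8.08 RPKM in tip libraries and 38.0 to 64.4 RPKM in stalk libraries, with all 6 tested markers higher in stalk. Many of these markers averaged under 1 RPKM in tip libraries and passed the filter on low values through their stalk libraries, which favoured a call toward stalk. They were all tested genes of urothelium, of endothelium except Plvap, of intercalated cells except Rhcg and Car2, and also Scnn1a, Fxyd4 and Laptm5. Nephron progenitor markers were low, with 6 genes summing to 3.96 to 6.497 RPKM in tip libraries and 1.76 to 2.91 RPKM in stalk libraries and both tested genes higher in tip. These genes, Cited1 and Crym, averaged under 1 RPKM in stalk libraries and passed the filter on low values through their tip libraries. Among those not tested, Six2 was higher in every tip library, Osr1 was higher in every stalk library, and Eya1 and Meox1 overlapped. Markers of immune cells were mixed, with Cd68 higher in tip (0.69), Laptm5 higher in stalk (-2.39) and Ptprc not called, and the 5 with values summed to 12.8 to 15.1 RPKM in tip libraries and 12.3 to 19.5 RPKM in stalk libraries. For stroma, proximal tubule and erythroid cells, the 5 markers tested were not called, with log2 fold changes from -0.15 for Slc34a1 to 0.29 for Col1a1. Transcripts of the mitochondrial genome summed to 15116 to 17526 RPKM in tip libraries and 23977 to 26805 RPKM in stalk libraries, and all 15 were higher in stalk. Of 10 immediate early and heat shock genes, 7 (70%) were higher in stalk, against 22.5% of all genes tested. The part of these cells and genes in the carrier differences was not tested.

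Among the pyruvate, carboxylate and carnitine carriers, 5 of 6 tested genes (83.3%) were higher in stalk and Mpc1 did not pass. Mpc2 (ENSMUSG00000026568.6, chr1:165460637-165481214, plus strand, GRCm38, a GENCODE span that begins before the RefSeq start), a subunit of the pyruvate carrier, had the largest log2 fold change of RPKM + 1 among the tested carriers. It stood at 20.8, 25.4 and 28.1 RPKM in the tip libraries, against 67.8, 83.2 and 64.8 RPKM in the stalk libraries. Every stalk library was far above every tip library, and the means differed 2.90-fold (stalk over tip), less than the 3.03-fold of Slc25a42, a carrier of low level. The log2 fold change was -1.50 (SE 0.14, limma adjusted p = 7.25e-05). Of the summed carrier RPKM, Mpc2 took 2.31 ± 0.3005% in tip libraries, against 5.12 ± 0.548% in stalk libraries. Here and below, values with ± are the mean and SD of 3 libraries.

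Mpc1 (chr17:8282904-8297661, plus strand), the partner subunit, stood at 1.26, 0.415 and 2.04 RPKM in the tip libraries, against 1.11, 1.81 and 1.44 RPKM in the stalk libraries. The groups overlapped, and the log2 fold change was -0.19 with a 95% interval of -0.83 to 0.45 (limma adjusted p = 0.603). The level of Mpc1 is uncertain, since the table also lists the pseudogene Mpc1-ps, looked at after the Mpc1 values were seen, and reads may be split between them. Mpc1-ps stood at 17.9, 15.2 and 21.9 RPKM in the tip libraries, against 22.3, 26.7 and 27.9 RPKM in the stalk libraries. It was called toward stalk (log2 fold change -0.47, adjusted p = 0.0299), and Mpc1 made up 2.66% to 8.52% of the sum of the pair over the 6 libraries. The levels of Mpc1 and Mpc2 are for that reason not compared.

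Slc25a1, which exports citrate for fatty acid synthesis, stood at 19.1, 19.0 and 25.1 RPKM in tip cells and at 27.7, 36.6 and 34.0 RPKM in stalk cells (log2 fold change -0.61, limma adjusted p = 0.00897). Slc25a10, the dicarboxylate carrier, stood at 33.2, 25.7 and 30.9 RPKM in tip cells and at 45.7, 47.4 and 56.4 RPKM in stalk cells (log2 fold change -0.72, adjusted p = 0.00206). Slc25a11, the oxoglutarate carrier of the malate-aspartate shuttle, stood at 45.6, 36.2 and 46.6 RPKM in tip cells and at 57.2, 70.9 and 65.5 RPKM in stalk cells (log2 fold change -0.58, adjusted p = 0.00602). For these 3 genes no tip library reached the lowest stalk library. Slc25a20 brings acylcarnitines into the matrix for beta oxidation, and its groups did not overlap either, at 12.3, 12.5 and 13.8 RPKM in tip cells and at 16.8, 16.54 and 17.1 RPKM in stalk cells. Its log2 fold change was -0.36 (limma adjusted p = 0.0161), and the call was lost without tip replicate 1 (adjusted p = 0.0658). Slc25a21, an oxodicarboxylate carrier, averaged under 1 RPKM in both groups and was not tested.

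**Figure D2:**
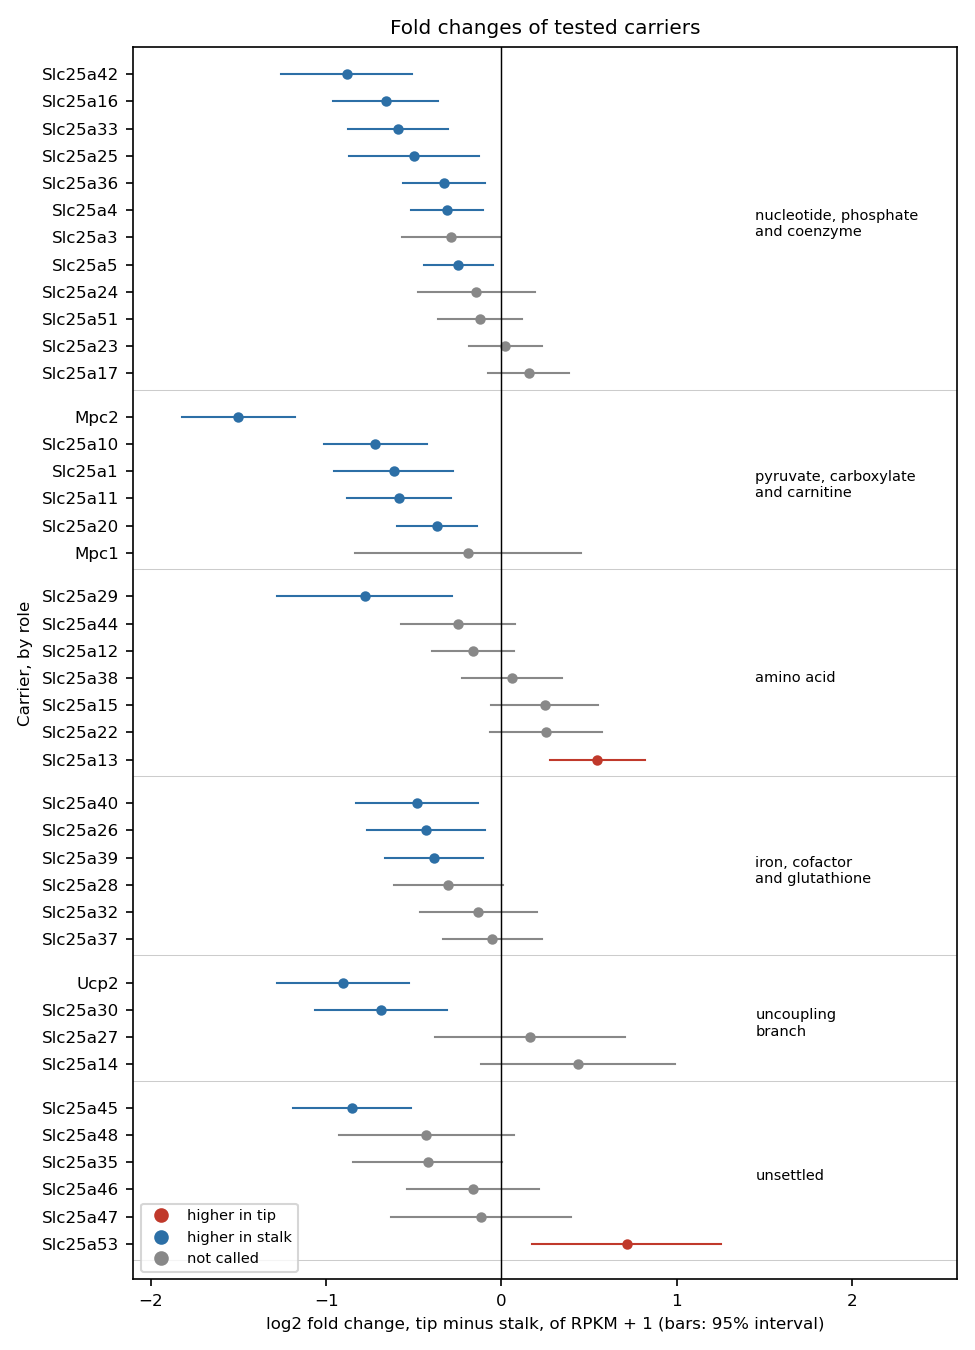
Log2 fold change of RPKM + 1 (tip minus stalk) for 41 tested carriers in 6 role groups, with points for the estimate and bars for the 95% interval from limma. Blue points (19) were higher in stalk, red points (2) were higher in tip and grey points (20) were not called, with Mpc2 furthest toward stalk at -1.50.

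Carriers of nucleotides, phosphate and coenzymes formed the largest group, with 8 of 13 tested genes (61.5%) higher in stalk and 5 not called. The most abundant was Slc25a3 (chr10:91116574-91124059, minus strand), which carries phosphate for ATP synthesis and also copper. It stood at 236, 308 and 242 RPKM in the tip libraries, against 342, 309.6 and 305 RPKM in the stalk libraries. Tip replicate 2 lay among the stalk libraries, and the log2 fold change of -0.29 (95% interval -0.57 to -0.010) did not pass over all genes (limma adjusted p = 0.0810). Without tip replicate 2 it passed (-0.41, adjusted p = 0.0160).

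ADP/ATP carriers send ATP to the cytosol in exchange for ADP. Slc25a5 (chrX:36795651-36798807, plus strand), the isoform of dividing cells, stood at 160.3, 159 and 165 RPKM in the tip libraries, against 191, 203 and 182 RPKM in the stalk libraries. Slc25a4 (chr8:46206797-46211284, minus strand), the isoform of heart and muscle, stood at 109.8, 103 and 113 RPKM in the tip libraries, against 126, 143 and 136 RPKM in the stalk libraries. Both were higher in every stalk library than in any tip library. The log2 fold change was -0.25 for Slc25a5 (SE 0.085, limma adjusted p = 0.0426) and -0.31 for Slc25a4 (SE 0.090, limma adjusted p = 0.0214). Neither call was stable: that of Slc25a5 was lost without tip replicate 1, 2 or 3 or stalk replicate 1, 2 or 3 (adjusted p 0.0570 to 0.119), and that of Slc25a4 without tip replicate 1 or 2 or stalk replicate 2 or 3 (adjusted p 0.0615 to 0.0656). Of the sum of the pair, Slc25a4 made up 40.2 ± 0.775% in tip libraries, against 41.3 ± 1.55% in stalk libraries, a difference within the spread of the libraries, and close paralogs may share reads. Of the summed carrier RPKM, Slc25a3, Slc25a4 and Slc25a5 together took 49.7 ± 1.92% in tip libraries, against 46.1 ± 2.20% in stalk libraries. Slc25a31, the testis isoform, averaged under 0.1 RPKM in both groups and was not tested.

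Slc25a42 and Slc25a16, both linked to coenzyme A, were called toward stalk. Slc25a42 stood at 0.549, 0.813 and 0.785 RPKM in tip cells and at 1.85, 2.25 and 2.39 RPKM in stalk cells (log2 fold change -0.88, limma adjusted p = 0.00257). It was the only tested carrier with a group mean under 1 RPKM, and it passed the filter on low values through its stalk libraries. Slc25a16 averaged 6.45 ± 0.880 RPKM in tip libraries, against 10.7 ± 0.666 RPKM in stalk libraries (log2 fold change -0.66, limma adjusted p = 0.00358).

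Slc25a33 and Slc25a36 carry pyrimidine nucleotides. Slc25a33 stood at 7.48, 7.31 and 6.58 RPKM in tip cells and at 10.8, 12.8 and 10.2 RPKM in stalk cells, without overlap (log2 fold change -0.59, limma adjusted p = 0.00503). Slc25a36 was the more abundant per length, averaging 28.8 ± 1.53 RPKM in tip libraries, against 36.5 ± 3.31 RPKM in stalk libraries (log2 fold change -0.33, limma adjusted p = 0.0274), a call lost without tip replicate 2 or 3 or stalk replicate 1 or 3 (adjusted p 0.0603 to 0.0856). Among the calcium-regulated ATP-Mg/phosphate carriers only Slc25a25 was called, and the difference between the paralogs was not tested. Slc25a25 stood at 47.4, 68.6 and 50.3 RPKM in the tip libraries, against 83.6, 65.4 and 85.7 RPKM in the stalk libraries. Tip replicate 2 exceeded stalk replicate 2, and the log2 fold change was -0.50 (limma adjusted p = 0.0333), a call lost without tip replicate 1 or 3 or stalk replicate 1 or 3 (adjusted p 0.0766 to 0.117). With its largest row in place of the sum it was not called either (-0.25, adjusted p = 0.140). Slc25a23 averaged 25.7 ± 1.47 RPKM in tip libraries, against 25.3 ± 0.444 RPKM in stalk libraries, with a 95% interval of the log2 fold change of -0.19 to 0.23, and Slc25a24 had an interval of -0.48 to 0.19. Slc25a51, the NAD carrier, and Slc25a17, a peroxisomal carrier, were not called (log2 fold changes -0.12 and 0.16), and Slc25a41 averaged under 0.1 RPKM in both groups.

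**Figure D3:**
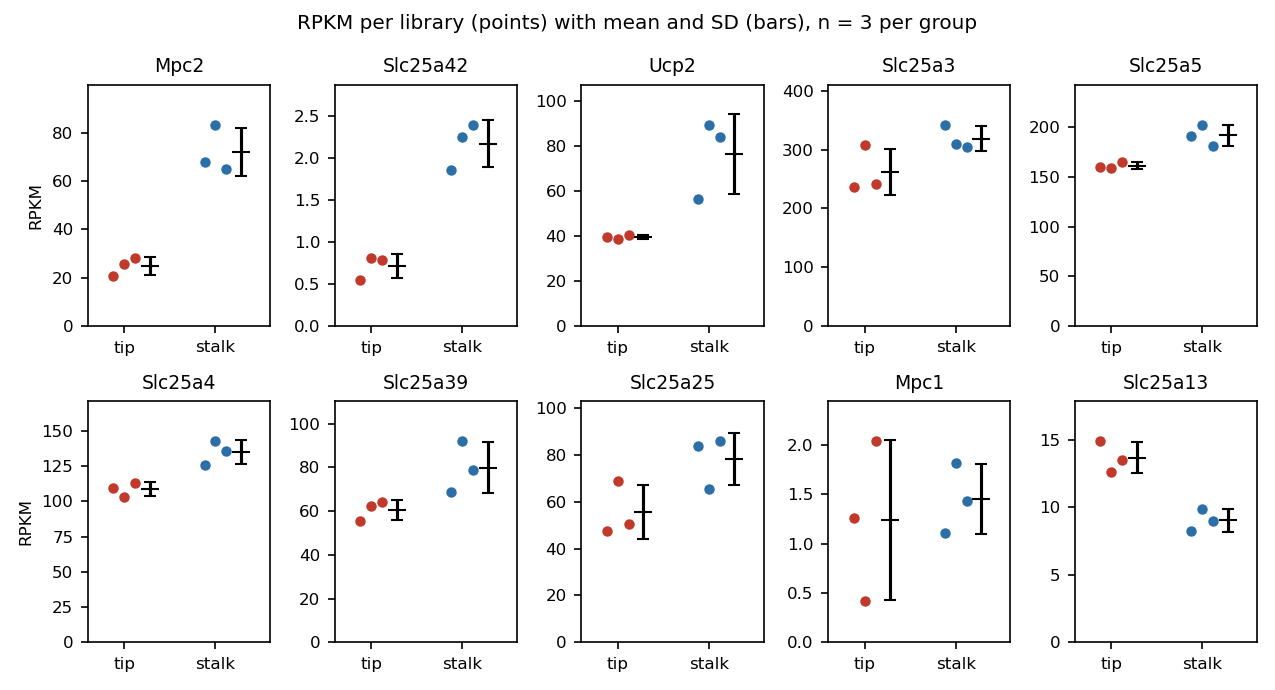
RPKM of 10 carriers, tip at left and stalk at right, with a point for each library, the mean and SD of 3 libraries as bars, and linear axes from 0. The groups overlap for Slc25a3, Slc25a25 and Mpc1, Slc25a13 is higher in tip, and the other 6 are higher in every stalk library than in any tip library.

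Of 7 tested amino acid carriers, 1 was higher in tip, 1 was higher in stalk and 5 were not called, and the summed RPKM of the group overlapped. The share called was 14.3% each way, against a background of 26.1% toward tip and 22.5% toward stalk. With 7 genes, these shares cannot be told apart from the background. Slc25a13 (citrin, chr6:6041218-6217173, minus strand) and Slc25a12 (aralar) are the aspartate/glutamate carriers of the malate-aspartate shuttle. Slc25a13 stood at 14.9, 12.6 and 13.6 RPKM in the tip libraries, against 8.24, 9.92 and 9.0 RPKM in the stalk libraries. It was higher in every tip library (log2 fold change 0.55, SE 0.12, limma adjusted p = 0.00555). Slc25a12 stood at 10.1, 10.01 and 10.5 RPKM in the tip libraries, against 11.9, 11.6 and 11.0 RPKM in the stalk libraries, leaning the other way without passing (log2 fold change -0.16, limma adjusted p = 0.222). Slc25a13 thus made up 55.8% to 59.7% of the sum of the pair in tip libraries and 40.9% to 46.0% in stalk libraries, ranges that do not overlap.

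Slc25a29, a carrier of basic amino acids, stood at 1.85, 1.65 and 2.74 RPKM in tip cells and at 2.97, 5.24 and 4.76 RPKM in stalk cells (log2 fold change -0.78, limma adjusted p = 0.0177), a call lost without tip replicate 1 or 2 or stalk replicate 2 or 3 (adjusted p 0.0532 to 0.0632). Slc25a15, the ornithine carrier, averaged 5.95 ± 0.523 RPKM in tip libraries, against 4.86 ± 0.508 RPKM in stalk libraries, without overlap, but did not pass (log2 fold change 0.25, limma adjusted p = 0.159). Slc25a22, a glutamate carrier, had a log2 fold change of 0.25 (adjusted p = 0.167) and passed toward tip without stalk replicate 1 (0.37, adjusted p = 0.0466). Slc25a38, which brings glycine to haem synthesis, had a 95% interval of -0.23 to 0.34, and Slc25a44, a carrier of branched-chain amino acids, one of -0.57 to 0.080. Slc25a2 and Slc25a18, paralogs of the ornithine and glutamate carriers, averaged under 0.1 RPKM in both groups.

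All 6 carriers of iron, cofactors and glutathione had negative log2 fold changes, and 3 (50%) passed toward stalk. Slc25a39 (chr11:102402985-102407946, minus strand), which imports glutathione, was the fourth most abundant carrier and stood at 55.5, 62.3 and 64.0 RPKM in the tip libraries, against 68.8, 92.0 and 78.8 RPKM in the stalk libraries. Its groups did not overlap, and the log2 fold change was -0.39 (SE 0.12, limma adjusted p = 0.0302), a call lost without tip replicate 1, 2 or 3 or stalk replicate 2 or 3 (adjusted p 0.0510 to 0.109). Its paralog Slc25a40 averaged 2.76 ± 0.378 RPKM in tip libraries, against 4.25 ± 0.588 RPKM in stalk libraries (log2 fold change -0.48, limma adjusted p = 0.0303). That call was lost without tip replicate 1 or 2 or stalk replicate 1 or 2 (adjusted p 0.0753 to 0.101). It was also lost with no filter on low values, the replicate block or the largest row (adjusted p 0.0637, 0.0812 and 0.102). The leading row of Slc25a40 held from 19.5% of its RPKM in stalk replicate 2 to 97.3% in tip replicate 1. Slc25a26, the importer of S-adenosylmethionine, averaged 3.64 ± 0.664 RPKM in tip libraries, against 5.21 ± 0.193 RPKM in stalk libraries (log2 fold change -0.43, limma adjusted p = 0.0409), a call lost without tip replicate 1 or 3 or stalk replicate 1, 2 or 3 (adjusted p 0.0667 to 0.145).

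The iron importers were at like levels per length. Slc25a37 (mitoferrin 1), the form of red cell precursors, averaged 8.17 ± 0.848 RPKM in tip libraries, against 8.48 ± 0.531 RPKM in stalk libraries, with a 95% interval of the log2 fold change of -0.33 to 0.23. Slc25a28 (mitoferrin 2) averaged 7.46 ± 0.420 RPKM in tip libraries, against 9.49 ± 1.51 RPKM in stalk libraries, with every stalk library above every tip library, but did not pass (log2 fold change -0.30, limma adjusted p = 0.0985). Of 8 erythroid markers, 5 had values, and these summed to 12.7 to 72.9 RPKM in tip libraries and 10.004 to 86.3 RPKM in stalk libraries, overlapping between the groups. Slc25a32, which carries folate or FAD, had a log2 fold change of -0.13 (adjusted p = 0.482).

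In the uncoupling protein branch, 2 of 4 genes (50%) were higher in stalk. Ucp2 (chr7:100493337-100502020, plus strand), known for proton leak and for export of small carboxylic acids, stood at 39.6, 38.5 and 40.5 RPKM in the tip libraries, against 56.3, 89.4 and 83.7 RPKM in the stalk libraries. Tip libraries were almost alike, stalk libraries were all higher, and stalk replicate 1 was the lowest of them. The means differed 1.93-fold (stalk over tip), and the log2 fold change was -0.91 (SE 0.16, limma adjusted p = 0.00230). Slc25a30 averaged 3.85 ± 0.639 RPKM in tip libraries, against 6.82 ± 1.25 RPKM in stalk libraries (log2 fold change -0.69, limma adjusted p = 0.00897). Slc25a14 and Slc25a27, genes of the branch known from brain, had log2 fold changes of 0.44 and 0.16 and were not called. Without stalk replicate 3, Slc25a14 passed toward tip (0.67, adjusted p = 0.0446).

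Of 6 tested carriers whose substrate is unsettled or whose role differs, 1 (16.7%) was higher in tip and 1 (16.7%) higher in stalk. Slc25a53 stood at 4.21, 3.25 and 3.11 RPKM in tip cells and at 2.22, 0.919 and 2.32 RPKM in stalk cells (log2 fold change 0.72, SE 0.23, limma adjusted p = 0.0343), a call lost without tip replicate 1, 2 or 3 or stalk replicate 2 (adjusted p 0.0578 to 0.118). Its locus shares 5318 bases with Zcchc18 on the opposite strand. Zcchc18 averaged 10.7 ± 2.23 RPKM in tip libraries, against 4.22 ± 1.13 RPKM in stalk libraries. It was itself called toward tip (log2 fold change 1.17, limma adjusted p = 0.00169), so the value of Slc25a53 is uncertain. The 13 rows of Slc25a53 with values each averaged under 1 RPKM. With the largest row in place of the sum, Slc25a53 was therefore not tested. Slc25a45 stood at 1.92, 2.07 and 2.16 RPKM in tip cells and at 5.27, 4.39 and 3.97 RPKM in stalk cells, without overlap (log2 fold change -0.85, limma adjusted p = 0.00173). Slc25a46 acts in the outer membrane in mitochondrial dynamics and was not called (log2 fold change -0.16). Slc25a35 (-0.42), Slc25a47 (-0.12) and Slc25a48 (-0.43) were not called. The leading row of Slc25a35 averaged 0.205 RPKM in tip libraries, against 2.05 RPKM in stalk libraries, without overlap. Its next row averaged 1.19 RPKM in tip libraries, against 0.977 RPKM in stalk libraries, with overlap. The locus of Slc25a35 shares 1882 bases with Rangrf on the opposite strand. Slc25a35 passed toward stalk without stalk replicate 2 (-0.58, adjusted p = 0.0307), and Slc25a48 without stalk replicate 1 (-0.67, adjusted p = 0.0113). Slc25a34 and Slc25a43 averaged under 1 RPKM, and Slc25a54 had question marks in place of values.

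The carrier genes lie on 20 chromosomes, and 4 pairs lie within 50000 bases of each other. Slc25a29 and Slc25a47 are 162 bases apart on chromosome 12, on opposite strands, and of these Slc25a29 was called. Slc25a43 and Slc25a5 are 18448 bases apart on the X chromosome, with Slc25a5 called. The pairs Slc25a41 with Slc25a23 and Slc25a54 with Slc25a24 held no called gene.

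Of the 49 carriers with values, 32 had more than 1 row, and rows carry no transcript identifier. Rows were not tested. The leading row of Mpc2 held 99.0% of its RPKM in tip libraries and 98.0% in stalk libraries on average. Slc25a3 was divided more, with 74.7% in tip libraries and 72.3% in stalk libraries in its leading row. Its next row stood at 9.27, 32.2 and 10.5 RPKM in tip cells and at 38.7, 24.0 and 51.2 RPKM in stalk cells, and the following row at 25.5, 30.6 and 25.4 RPKM in tip cells and at 23.1, 17.4 and 25.4 RPKM in stalk cells. That last row was higher in each tip library than in any stalk library, by a margin that was narrow for stalk replicate 3, while the summed gene leaned toward stalk. Ucp2 had 4 rows above 1 RPKM, and its leading row, at 21.7, 15.7 and 21.8 RPKM in tip cells and at 30.0, 36.0 and 37.3 RPKM in stalk cells, and the row ranked 3, at 6.86, 5.55 and 4.31 RPKM in tip cells and at 11.7, 16.9 and 13.6 RPKM in stalk cells, were higher in every stalk library.

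Genes that act beside the carriers were taken from 8 lists, and of their 66 tested genes 11 (16.7%) were called toward tip and 29 (43.9%) toward stalk. The background over all genes tested, also for the count of each list, was 26.1% toward tip and 22.5% toward stalk. The median log2 fold change of the 66 genes was -0.11. The count toward tip was 6 without tip replicate 1. All 8 genes of the carnitine shuttle and beta oxidation were higher in stalk (median -0.93), and Acadm, an acyl-CoA dehydrogenase, averaged 15.9 ± 2.79 RPKM in tip libraries, against 42.6 ± 8.26 RPKM in stalk libraries (log2 fold change -1.36, limma adjusted p = 0.000285). Of 9 pyruvate dehydrogenase genes, 7 were higher in stalk (median -0.68), among them the subunit genes Pdha1 (-0.37), Pdhb (-0.76), Dlat (-0.68) and Dld (-0.50). The others called were Pdk1, Pdk2 and Pdk4, kinases that inhibit the complex, while Pdhx (-0.077) and Pdk3 (0.26) were not called. Pdk2 averaged 12.3 ± 1.34 RPKM in tip libraries, against 38.8 ± 5.71 RPKM in stalk libraries (log2 fold change -1.58, limma adjusted p = 4.97e-05).

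Of 7 enzymes of the malate-aspartate shuttle and of citrate, 1 was called toward tip and 5 toward stalk (median -0.44). Acly, which splits the citrate that SLC25A1 exports, averaged 49.0 ± 3.23 RPKM in tip libraries, against 37.1 ± 2.83 RPKM in stalk libraries (log2 fold change 0.39, limma adjusted p = 0.0115), a call opposite in direction to that of Slc25a1. Mdh1, the cytosolic malate dehydrogenase, averaged 71.7 ± 6.49 RPKM in tip libraries, against 133 ± 11.6 RPKM in stalk libraries (log2 fold change -0.88, limma adjusted p = 0.000258). The call of citrate synthase, Cs, was lost without tip replicate 3 (adjusted p = 0.0601).

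Of 7 mitochondrial one-carbon enzymes, 5 were called toward tip and 1 toward stalk (median 0.57). Of those 5, Gcsh, of the glycine cleavage system, was called in all alternatives (0.58, limma adjusted p = 0.00495), and Mthfd2, Mthfd2l, Mthfd1l and Gldc each lost the call in some. Mthfd2, a folate enzyme, averaged 29.2 ± 7.91 RPKM in tip cells and 16.7 ± 7.69 RPKM in stalk cells (log2 fold change 0.82, limma adjusted p = 0.0438), a call lost without tip replicate 1, 2 or 3 or stalk replicate 2 or 3 (adjusted p 0.0610 to 0.142), and with median ratio scaling (adjusted p = 0.0724). Amt, also of glycine cleavage, was higher in stalk, averaging 12.6 ± 1.44 RPKM in tip libraries, against 27.0 ± 3.02 RPKM in stalk libraries (log2 fold change -1.04, limma adjusted p = 0.000270). Of 8 tested haem synthesis genes, 3 were higher in stalk, and Fech, which inserts the iron, averaged 7.30 ± 0.141 RPKM in tip libraries, against 11.8 ± 1.01 RPKM in stalk libraries (log2 fold change -0.62, limma adjusted p = 0.00225). The other two, Alas1 and Cpox, lost the call without tip replicate 1 or 3 or stalk replicate 2 or 3 (adjusted p 0.0660 to 0.0834) and without tip replicate 1 or 2 or stalk replicate 2 or 3 (adjusted p 0.0708 to 0.0936).

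The machinery that imports carriers held 1 call among 12 tested genes. Timm8a1, an intermembrane space chaperone of the import route, was higher in tip, averaging 6.498 ± 1.56 RPKM in tip libraries, against 3.79 ± 0.246 RPKM in stalk libraries (log2 fold change 0.63, limma adjusted p = 0.0153), a call lost without tip replicate 1 or stalk replicate 3 (adjusted p 0.0505 to 0.0579). The summed list came to 275 to 310.2 RPKM in tip libraries and 257 to 294 RPKM in stalk libraries, and the groups overlapped. Among 8 genes of mitochondrial mass and outer membrane, Tfam, which packages mitochondrial DNA, was higher in tip, averaging 24.0 ± 2.04 RPKM in tip libraries, against 15.5 ± 0.204 RPKM in stalk libraries (log2 fold change 0.60, limma adjusted p = 0.00156), as was the chaperone gene Hspd1 (0.55). Vdac1, an outer membrane channel, was higher in stalk, averaging 86.4 ± 1.63 RPKM in tip libraries, against 119 ± 9.40 RPKM in stalk libraries (log2 fold change -0.45, limma adjusted p = 0.00387). This list summed to 492 to 522 RPKM in tip libraries and 494 to 512 RPKM in stalk libraries.

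Of 7 tested transcription factors and coactivators of mitochondrial genes, 2 were called toward tip and 4 toward stalk. Nrf1 averaged 14.8 ± 1.23 RPKM in tip libraries, against 7.997 ± 0.444 RPKM in stalk libraries (log2 fold change 0.81, limma adjusted p = 0.000580), and Pprc1 was also higher in tip (0.71). Both lost the call with the largest row in place of the sum (adjusted p 0.0604 and 0.0703). Esrra, an estrogen-related receptor, averaged 3.83 ± 1.02 RPKM in tip libraries, against 32.8 ± 4.29 RPKM in stalk libraries (log2 fold change -2.82, SE 0.18, limma adjusted p = 1.43e-05). Esrrg (-2.32), Ppargc1a (-1.46) and Ppargc1b (-1.40) were higher in stalk as well, and Ppargc1a was not called with no filter on low values (adjusted p = 0.0586). Ppargc1b averaged 0.148 RPKM in tip libraries, against 2.03 RPKM in stalk libraries, and passed the filter on low values through its stalk libraries.

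**Figure D4:**
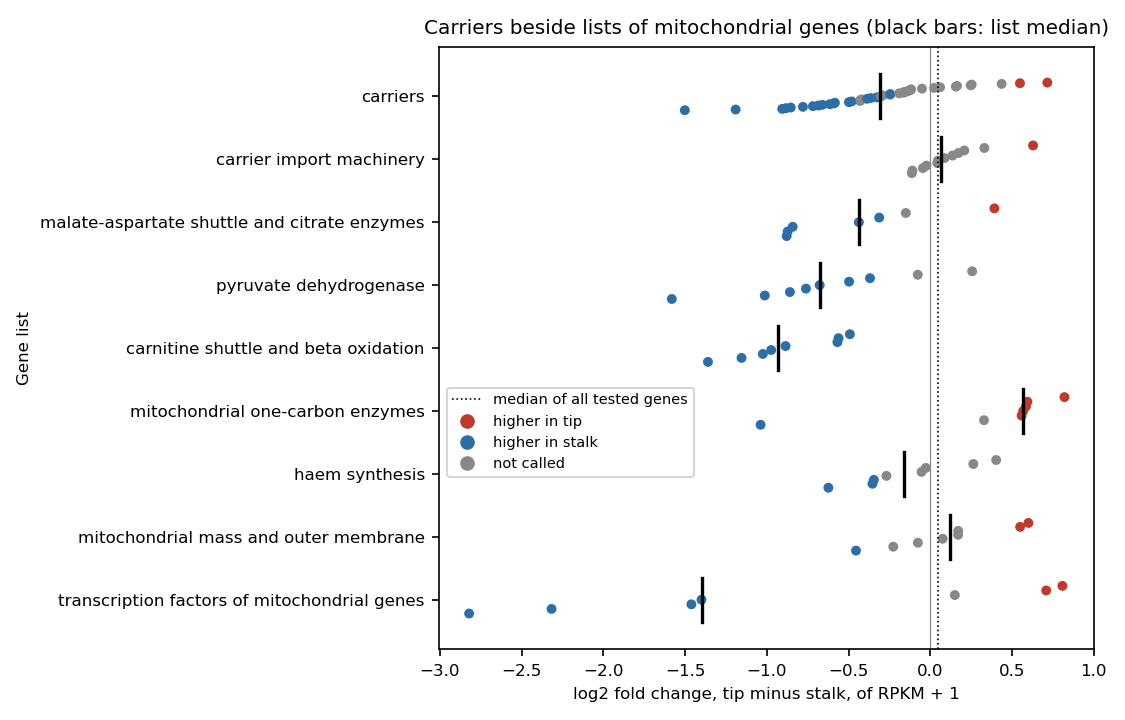
Log2 fold change of RPKM + 1 (tip minus stalk) for the tested carriers and 8 lists of mitochondrial genes, 1 point per gene, with black bars for list medians and a dotted line for the median of all tested genes. The carriers centre at -0.31, the carnitine and pyruvate dehydrogenase lists lie further toward stalk (-0.93 and -0.68), and the one-carbon list lies toward tip (0.57).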

How the data were processed

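Messenger RNA was profiled in 3 tip and 3 stalk samples, grouped by their titles. The authors deposited a table of RPKM, per its name, with several rows for a symbol. Tools named in the submitters' processing notes are bcl2fastq 2.17, TopHat2 and Partek, with build mm10. Annotation, settings and strand use are not given in the sources used here. Of 93615 rows, 24545 held question marks in all 6 columns and were dropped.

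RPKM was summed per symbol. Symbols averaging 1 RPKM or more were tested with limma 3.58.1 (R 4.3.3) on log2(RPKM + 1), which understates changes of low genes, with a mean-variance trend, without a block, two-sided, with Benjamini-Hochberg adjustment over all 12532. Intervals are 95%. The fit was tested on simulated data with changes of at least 1 log2 unit only, so that test does not cover the smaller changes of most called carriers. RPKM sums per library (345123 to 366035) do not measure depth. Positions are from GENCODE M21 (GRCm38, the same as mm10), promoters from RefSeq.

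Members and lists were chosen with earlier results of these data known. By rule, all library values were given for called carriers changed by at least 1 log2 unit, the 6 most abundant, Slc25a4, Slc25a5, Mpc1, Mpc2 and Ucp2, and from each partner list the called gene with the largest change each way was named. Other genes with library values were picked after their values were seen. Alternatives changed the pseudocount, filter, scaling, block, trend, row summary and libraries used. Values of 1 tested carrier, which all counts include, are not reported here.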

Additional observations from a re-analysis of the deposited data

How the results depend on the processing

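Toward stalk, 20 carriers were called, 12 to 19 with libraries left out and 13 with the replicate block. Of those 20, 12 to 17 stayed called with libraries left out, and the other calls were of carriers outside them. Toward tip, 2 carriers were called, 1 to 3 with libraries left out, and 1 with no filter on low values, with a minimum mean of 5 RPKM or with the largest row. Of the partner genes, 11 were called toward tip, 6 to 10 with libraries left out and 7 with the replicate block. The minimum of 5 RPKM tested 29 carriers and the largest row 40, against 42 in the main fit. Slc25a53, called toward tip in the main fit, was not tested in either of these. Otherwise the cause was not tested. With no filter, 6 called carriers lost the call (adjusted p 0.0621 to 0.0995). Libraries of like number did not pair: the deviations of tip and stalk replicates 1, 2 and 3 correlated at -0.30, -0.34 and 0.093 across genes. No library correlated best with its own number. The best matches were tip replicate 2 with stalk replicate 1 (0.56), tip 3 with stalk 2 (0.40) and tip 1 with stalk 3 (0.33). A block on these matches was not tested. Over all genes, the replicate block gave 2716 calls toward tip and 2380 toward stalk, against 3274 and 2815 without it. Scaling by median ratios gave 3013 and 3143. Uncalled carriers changed sign in places. With the largest row, the log2 fold change was -0.071 for Slc25a14, -0.086 for Slc25a22 and -0.0025 for Slc25a23, and with median ratio scaling it was -0.030 for Slc25a23. With libraries left out it ranged from -0.45 to 0.11 for Mpc1, -0.015 to 0.076 for Slc25a23, -0.037 to 0.37 for Slc25a27, -0.11 to 0.027 for Slc25a37, -0.037 to 0.14 for Slc25a38 and -0.39 to 0.022 for Slc25a47. No called carrier changed sign in the 14 alternatives. Depth is unknown, 3 libraries a group limit the precision, and the median SE over tested carriers was 0.14 log2 units.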
